A study of Mus musculus with 11 samples.

Results

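The insulin-like growth factor (IGF) system was followed through 10 genes, listed by symbol, in RNA-seq libraries of cell lines from liver cancers of mice. They are the ligand gene Igf1, the receptor gene Igf1r, the adaptor gene Irs1, the binding protein genes Igfbp2 to Igfbp7 and the protease gene Pappa, 10 of the 36528 gene IDs counted. All of them passed the filter on low counts, but Igfbp2, Igfbp5 and Pappa passed it only through the groups in which they were high. The libraries fall into 3 groups by the mutant of the tumours: YAP-S127A with 3 libraries, YAP-5SA with 3 and TAZ-S89A with 5. YAP (gene Yap1) and its relative TAZ (gene Wwtr1) are coactivators that work with TEAD transcription factors, and alanine in place of serine removes sites at which Hippo pathway kinases restrain them. Sample labels write YAP-S5A where the series text writes YAP-5SA, and both were taken as 1 mutant. Neither a promoter or Cre driver of the mutant, nor an animal's age or strain, was given in the sources used here, and no group without a mutant was analysed here. It is likewise not stated if the libraries of a group are separate tumours, clones or dishes, so every p-value below measures only the spread between these libraries, and the mutant and the identity of the cell line cannot be told apart.

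IGF1 and IGF2 bind the receptor tyrosine kinase IGF1R, which phosphorylates the docking protein IRS1 and so passes the signal to PI3 kinase and AKT. Most IGF outside cells is held by IGF-binding proteins, which prolong its life and limit its access to the receptor, and metalloproteases such as pregnancy-associated plasma protein A (PAPP-A, gene Pappa) cut certain binding proteins and release it. In adult liver, hepatocytes secrete circulating IGF1 under growth hormone but carry little IGF1R, while stellate cells and fibroblasts make several of the binding proteins.

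Total counts per library ran from 20071144 to 49159713. TAZ-S89A replicates 4 and 5 have sample IDs from a second number series and the lowest totals. They differed from each other by a chi-square of 2.08 per degree of freedom, and replicates 1 and 2 by 5.98, against 110.05 to 236.35 for the other TAZ-S89A pairs, so the 5 libraries are not equally distinct. The cells carried few signs of the hepatocyte: of 10 hepatocyte markers, only Hnf4a and Ass1 reached a mean of 1 CPM (counts divided by library size) in the YAP groups and none did in TAZ-S89A, with summed levels of 13.97 to 16.77 CPM in YAP-S127A, 23.1 to 37.4 in YAP-5SA and 1.18 to 1.71 in TAZ-S89A. Serpina1a had no count in any library. Of 8 biliary markers, 6 reached 1 CPM in every group, Krt19 and Sox9 among them. Endothelial markers summed to at most 2.58 CPM in any library. Macrophage markers summed to 23.6 to 28.3 CPM in YAP-S127A, 85.4 to 97.5 in YAP-5SA and 27.5 to 37.0 in TAZ-S89A. In YAP-5SA, Csf1r, Cd68, Lyz2 and Cd14 carried the sum. Ptprc, Adgre1, Clec4f and Itgam averaged only 0.181, 0.210, 0.00891 and 0.751 CPM there, and Ptprc was higher in YAP-S127A, at 0.330 CPM.

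Each mutant group had its own pattern of IGF-binding proteins. The YAP-S127A libraries were highest for Igfbp2, Igfbp6, Igfbp7 and the receptor Igf1r. The YAP-5SA libraries were highest for Igfbp3, Igfbp4 and the adaptor Irs1 and had the least Igf1. TAZ-S89A libraries alone held Igfbp5 above a trace, and they had the least Igf1r and Igfbp4. Levels are given as CPM scaled by TMM, a factor that corrects for RNA composition, and tests are edgeR quasi-likelihood tests with Benjamini-Hochberg adjustment over 18224 genes, a gene being called at an adjusted p under 0.05.

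**Figure D1:**
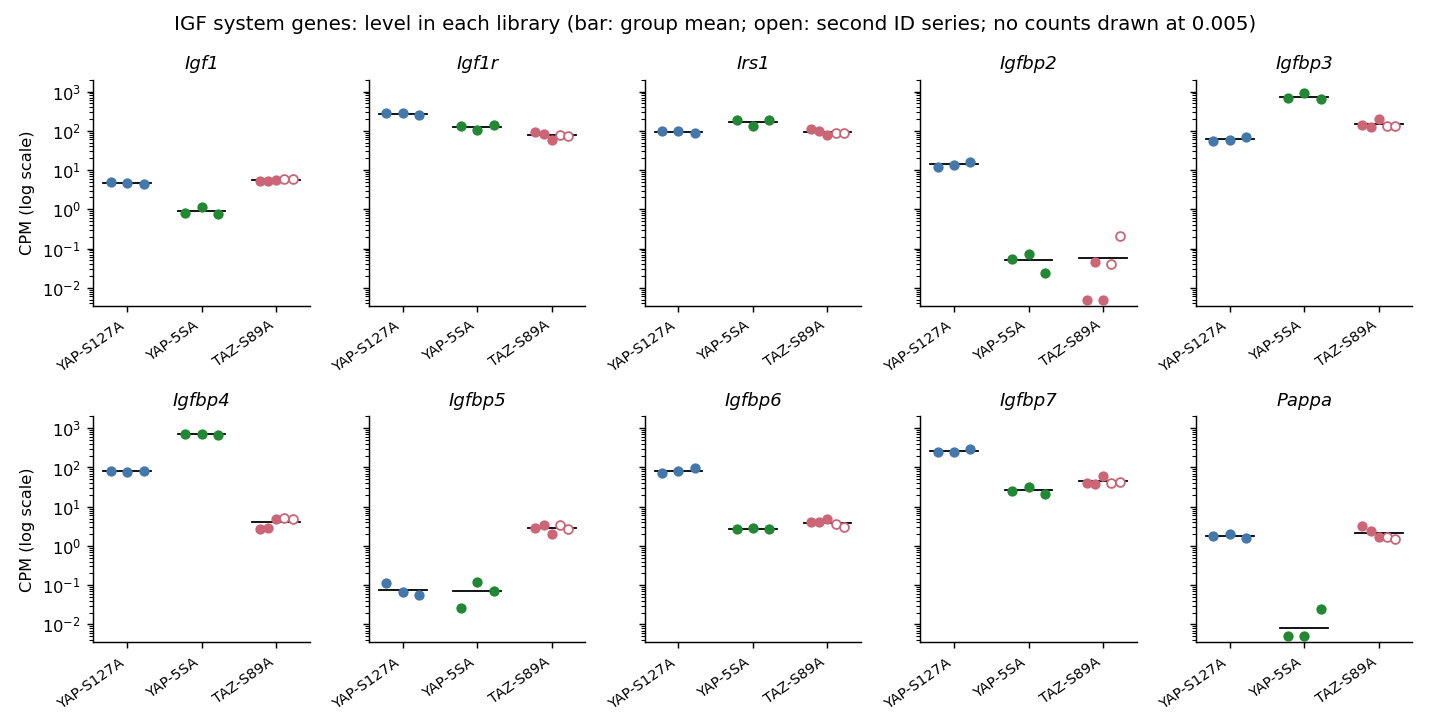
Level of each of the 10 IGF system genes in each library, in TMM-scaled CPM on a log axis, by mutant group (3 libraries of YAP-S127A, 3 of YAP-5SA and 5 of TAZ-S89A, with open points for TAZ-S89A replicates 4 and 5), bars giving group means and libraries without a count drawn at 0.005 CPM. Igfbp4 ran from 2.69 to 5.06 CPM in TAZ-S89A and from 690.6 to 703.5 in YAP-5SA, whereas Irs1 stayed between 76.3 and 191 CPM in all libraries.

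The ligand gene Igf1 (Entrez gene 16000, chromosome 10, 87858265 to 87937047, GRCm38 as for all positions here) was low in YAP-5SA. Its levels were 5.04, 4.79 and 4.47 CPM in the YAP-S127A libraries, 0.802, 1.17 and 0.750 in YAP-5SA libraries, and 5.31, 5.24, 5.57, 5.75 and 5.80 in TAZ-S89A. All YAP-5SA libraries lay below all others, and the TAZ-S89A libraries lay just above those of YAP-S127A without overlap. On the log2 scale YAP-5SA stood at -2.39 against YAP-S127A (SE 0.20, adjusted p = 1.9e-07), and TAZ-S89A was higher than YAP-5SA by 2.60 (SE 0.18, adjusted p = 2.91e-08). The small step from YAP-S127A to TAZ-S89A, 0.21 (SE 0.16), was not called (adjusted p = 0.262). Since these are bulk libraries, fewer cells of a type and less RNA per cell cannot be told apart, here and for every gene below.

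Igf1r (Entrez gene 16001, chromosome 7, 67952257 to 68233668), the receptor that both IGFs use, stepped down from YAP-S127A through YAP-5SA to TAZ-S89A. The YAP-S127A libraries held 279, 281 and 250.5 CPM, the YAP-5SA libraries 134.5, 103 and 141, and the TAZ-S89A libraries 92.0, 84.3, 59.96, 77.8 and 71.9. No library of a group reached the range of the next. Each step was called, at -1.10 (SE 0.19, adjusted p = 0.000218) from YAP-S127A to YAP-5SA and -0.71 (SE 0.16, adjusted p = 0.00201) from YAP-5SA to TAZ-S89A, or -1.81 (SE 0.16, adjusted p = 4.34e-07) from end to end. The other 1247 tested genes of chromosome 7 had a median of -0.70 in TAZ-S89A against YAP-S127A, -0.54 against YAP-5SA, and -0.11 in YAP-5SA against YAP-S127A. The part of this chromosome-wide shift in the Igf1r difference was not tested.

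The docking protein gene Irs1 (Entrez gene 16367, chromosome 1, 82233105 to 82291439) was highest in YAP-5SA. It stood at 101, 98.1 and 86.6 CPM in YAP-S127A, at 185.5, 131 and 191 in YAP-5SA libraries, and at 109, 100.5, 76.3, 88.9 and 87.3 in TAZ-S89A. The YAP-5SA libraries lay above all others, while the other groups overlapped. YAP-5SA exceeded YAP-S127A by 0.83 (SE 0.18, adjusted p = 0.00166) on the log2 scale, and TAZ-S89A differed from YAP-5SA by -0.87 (SE 0.16, adjusted p = 0.000361). TAZ-S89A and YAP-S127A differed by -0.04 (SE 0.16, adjusted p = 0.845). An exon of Irs1 overlaps Gm9747 on the other strand, and with the strand setting of the counting not given, their reads cannot be separated.

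Igfbp3, Igfbp4, Igfbp6 and Igfbp7 gave between them nearly all binding protein mRNA in every group, so the 250 bases before their starts are shown, with those of Irs1, whose window holds TEAD letters. The windows come from the RefSeq promoter table of GRCm38.p6 and are written 5′ to 3′ on the strand of the gene. Igfbp3 is chr11:7213924-7214173 on the minus strand, Igfbp4 chr11:99040994-99041243 on the plus strand, Igfbp6 chr15:102143936-102144185 on the plus strand, Igfbp7 chr5:77408046-77408295 on the minus strand and Irs1 chr1:82291440-82291689 on the minus strand. The Igfbp3 and Igfbp4 windows lie inside the span of the gene, before a start within it, as does the Igf1 window read below. Those of Igfbp6, Igfbp7 and Irs1 lie just outside the span. Capitals mark the letters TATAAA or, for the other strand, TTTATA, and in Irs1 the TEAD letters GGAATG.
Igfbp3: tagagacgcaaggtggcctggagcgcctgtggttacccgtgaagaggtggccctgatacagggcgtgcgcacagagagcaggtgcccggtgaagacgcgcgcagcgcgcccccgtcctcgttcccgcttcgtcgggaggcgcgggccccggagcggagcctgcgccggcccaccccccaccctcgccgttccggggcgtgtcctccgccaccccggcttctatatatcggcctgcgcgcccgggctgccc
Igfbp4: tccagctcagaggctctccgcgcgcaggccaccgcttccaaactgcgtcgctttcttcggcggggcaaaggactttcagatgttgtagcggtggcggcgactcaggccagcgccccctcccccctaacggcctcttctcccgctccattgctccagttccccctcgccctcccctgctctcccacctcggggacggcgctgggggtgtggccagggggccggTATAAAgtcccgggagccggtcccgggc
Igfbp6: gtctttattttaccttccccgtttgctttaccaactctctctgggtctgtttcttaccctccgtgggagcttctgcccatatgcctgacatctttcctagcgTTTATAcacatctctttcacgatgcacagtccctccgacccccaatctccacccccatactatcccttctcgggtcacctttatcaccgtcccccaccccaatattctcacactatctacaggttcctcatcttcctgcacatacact
Igfbp7: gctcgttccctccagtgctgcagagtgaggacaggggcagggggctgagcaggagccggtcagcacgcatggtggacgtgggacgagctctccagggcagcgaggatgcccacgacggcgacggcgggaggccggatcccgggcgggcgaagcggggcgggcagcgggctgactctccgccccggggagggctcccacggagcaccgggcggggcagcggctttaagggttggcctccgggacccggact
Irs1: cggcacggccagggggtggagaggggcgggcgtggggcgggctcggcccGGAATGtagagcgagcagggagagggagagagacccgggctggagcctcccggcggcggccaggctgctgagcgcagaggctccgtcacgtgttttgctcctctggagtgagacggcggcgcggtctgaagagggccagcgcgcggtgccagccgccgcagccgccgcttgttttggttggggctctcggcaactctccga
The table held 10 windows for 9 of the 10 genes, Pappa having none. GGAATG or CATTCC, the core that TEAD factors bind, stood in the windows of 2 genes, Irs1 at bases 201 to 196 before the start and Igfbp5 at bases 233 to 228 on the other strand, and in 12.6% of 32851 windows of the same length. TATAAA on either strand stood in Igfbp4 at bases 28 to 23 and in Igfbp6 on the other strand at bases 148 to 143, against 12.4% of all windows. Only these exact letters were searched, so the similar letters tatatat shortly before the Igfbp3 start were neither counted nor marked. The AP-1 letters TGANTCA stood in Igf1 at bases 37 to 31 and before the second start of Igfbp2 at bases 39 to 33, against 6.7%, and the FOXO letters GTAAACA or TGTTTAC in none of the 10 windows, against 3.2%. Shares were lower among the 16244 windows of tested genes, at 11.4% for the TEAD letters and 7.4% for TATAAA. There the AP-1 letters stood in 5.3% and the FOXO letters in 2.4%. None of the searched motifs overlaps another in the 10 windows. G and C made up 73.2% of the Igfbp3 window, 69.2% of that of Igfbp4, 74.0% of that of Igfbp7 and 72.4% of that of Irs1, but 49.6% of that of Igfbp6, beside a median of 52.4% over all windows. The windows are descriptions of sequence, and no binding was measured in these libraries.

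Igfbp3 (Entrez gene 16009, chromosome 11, 7206086 to 7215498) encodes the main carrier of circulating IGF, and its mRNA was most abundant in YAP-5SA. Levels were 55.2, 59.1 and 69.96 CPM in the YAP-S127A libraries, 665, 929.7 and 635 in YAP-5SA libraries, and 137, 122, 199, 135 and 135 in TAZ-S89A. The groups did not overlap, and TAZ-S89A lay between the others. The YAP-5SA mean was 12.1 times that of YAP-S127A, a log2 difference of 3.6 (SE 0.25, adjusted p = 4.79e-08). TAZ-S89A was higher than YAP-S127A by 1.25 (SE 0.22, adjusted p = 0.000228) and differed from YAP-5SA by -2.35 (SE 0.20, adjusted p = 2.33e-07).

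Igfbp4 (Entrez gene 16010, chromosome 11, 99040005 to 99052655), whose protein blocks IGF and is the classic substrate of PAPP-A, differed widely between all 3 groups. The YAP-5SA libraries held 703.5, 703 and 691 CPM, the YAP-S127A libraries 82.1, 77.3 and 79.8, and the TAZ-S89A libraries 2.69, 2.83, 4.73, 5.06 and 4.84. The spread within either YAP group was a few percent of its mean, and no groups overlapped. The mean of YAP-5SA was 8.77 times that of YAP-S127A (log2 difference 3.13, SE 0.25, adjusted p = 1.87e-07) and 173.5 times that of TAZ-S89A. TAZ-S89A stood at -7.45 (SE 0.25, adjusted p = 1.53e-11) against YAP-5SA and -4.32 (SE 0.22, adjusted p = 1.26e-09) against YAP-S127A on the log2 scale. The range of Igfbp4 over the group means of log2 CPM, 7.47, stood at percentile 98.7 of all tested genes, next to 98.5 for Igfbp2 and 39.8 for Irs1. These ranges use log2 CPM with a prior count, which holds in the fold changes of genes near the floor, such as Igfbp2 and Pappa.

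Biliary markers summed to 467 to 592 CPM in YAP-S127A, 2723 to 4276 in YAP-5SA and 1765 to 3668 in TAZ-S89A. None of the 8 was at 0 in any group, but Epcam and Prom1 were near the floor. In the same order, Epcam averaged 0.128, 0.082 and 0.095 CPM and Prom1 0.371, 0.056 and 0.014. The sum was carried by different genes in each group. The keratin genes Krt7 and Krt19 averaged 102 and 55.9 CPM in the YAP-S127A libraries, 1743 and 1371 in YAP-5SA libraries, and 1.41 and 7.38 in TAZ-S89A, the order of the groups that Igfbp4 had. Spp1, which averaged 2736 CPM there, gave most of the TAZ-S89A sum. The sum had the order of Igfbp3, but its YAP-5SA and TAZ-S89A ranges overlapped, which those of Igfbp3 did not. The part of biliary character in the Igfbp3 and Igfbp4 results was not tested.

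The genes Igfbp7, Igfbp6 and Igfbp2 were highest in YAP-S127A. Igfbp7 (Entrez gene 29817, chromosome 5, 77349240 to 77408045) encodes a secreted relative of the family that binds IGF only weakly. It stood at 254, 255 and 293 CPM in YAP-S127A, at 25.4, 32.1 and 21.6 in YAP-5SA libraries, and at 39.9, 37.9, 59.1, 41.2 and 42.6 in TAZ-S89A. No group overlapped another. Against YAP-S127A, Igfbp7 fell by 3.34 (SE 0.21, adjusted p = 1.59e-08) on the log2 scale in YAP-5SA and by 2.60 (SE 0.17, adjusted p = 1.65e-08) in TAZ-S89A, and TAZ-S89A exceeded YAP-5SA by 0.74 (SE 0.18, adjusted p = 0.00269). The other 1076 tested genes of chromosome 5 had a median of 0.35 in TAZ-S89A against YAP-5SA. Their median was 0.26 against YAP-S127A, and -0.06 in YAP-5SA against YAP-S127A. The part of this shift in the Igfbp7 differences was not tested. Exons of Igfbp7 overlap Polr2b on the other strand, so some reads may belong to either gene.

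Igfbp6 (Entrez gene 16012, chromosome 15, 102144186 to 102149512), whose protein prefers IGF2, was at 72.6, 80.8 and 94.4 CPM in YAP-S127A, at 2.70, 2.89 and 2.76 in YAP-5SA libraries, and at 3.96, 4.03, 4.90, 3.55 and 2.96 in TAZ-S89A. The YAP-S127A libraries stood far above the rest, and those of YAP-5SA lay just under the lowest TAZ-S89A library. Log2 differences from YAP-S127A were -4.89 (SE 0.19, adjusted p = 1.8e-10) in YAP-5SA and -4.40 (SE 0.15, adjusted p = 2.47e-11) in TAZ-S89A. TAZ-S89A was called higher than YAP-5SA at 0.49 (SE 0.16, adjusted p = 0.019), but not without YAP-5SA replicate 1 (0.0652) or replicate 3 (0.0551), the adjusted p lying between 0.00181 and 0.0652 across 21 alternatives.

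Igfbp2 (Entrez gene 16008, chromosome 1, 72824480 to 72852474), a binding protein of fetal liver, was present in YAP-S127A at 11.9, 13.4 and 16.4 CPM and nearly absent elsewhere. The YAP-5SA libraries held 2, 3 and 1 counts, and the TAZ-S89A libraries 0, 2, 0, 1 and 5. YAP-S127A stood clear of both groups, which overlapped each other. Changes from YAP-S127A were -8.03 (SE 0.51, adjusted p = 1.68e-08) in YAP-5SA and -8.09 (SE 0.43, adjusted p = 1.57e-09) in TAZ-S89A. With so few counts these sizes are loose: without TAZ-S89A replicate 5, which holds 5 of the 8 TAZ-S89A counts, the second became -9.16. The TAZ-S89A and YAP-5SA difference was not called (adjusted p = 0.963).

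Stellate cell and fibroblast markers, taken as a sum, were highest in YAP-S127A, like these 3 genes. Their 12 markers summed to 7991 to 8234 CPM in YAP-S127A, 289 to 388 in YAP-5SA and 1854 to 3558 in TAZ-S89A, and these sums had the group order of Igfbp7 and Igfbp6. Single markers did not all share it: Col1a2 averaged 2219 CPM of the TAZ-S89A sum and 2273 in YAP-S127A, whereas Col1a1, at 31.0 and 322 CPM, and Pdgfra, at 0.146 and 1.22 CPM, were lower in TAZ-S89A than in YAP-5SA. Of the 12, 8 reached 1 CPM in YAP-S127A, 7 in YAP-5SA libraries and 7 in TAZ-S89A, and Lrat and Lum had no count in YAP-S127A or TAZ-S89A. The part of mesenchymal character in these differences was not tested.

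Igfbp5 (Entrez gene 16011, chromosome 1, 72858065 to 72874865), the most conserved binding protein and another substrate of the PAPP-A family, was above a trace in TAZ-S89A only. TAZ-S89A libraries held 125, 154, 68, 82 and 66 counts, which is 2.95, 3.43, 1.97, 3.34 and 2.75 CPM. YAP-S127A libraries held 5, 2 and 2 counts and YAP-5SA libraries 1, 5 and 3. All TAZ-S89A libraries stood above all YAP libraries, whose groups overlapped. TAZ-S89A was higher by 5.11 (SE 0.38, adjusted p = 5.44e-08) than YAP-S127A and by 5.22 (SE 0.38, adjusted p = 3.59e-08) than YAP-5SA, and the YAP groups did not differ by the test (adjusted p = 0.898). Igfbp2 and Igfbp5 are neighbours on chromosome 1, 5591 bases apart and on opposite strands, and each was high in a group where the other was near the floor.

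Set against each other per length, the binding proteins made a different mixture in each group. Shares were taken within each library from the deposited nRPKM, a read count per gene length and depth, of Igfbp1 to Igfbp7. In YAP-S127A, Igfbp7 made up 61.6% ± 0.63 (SD, n = 3) of the sum, Igfbp6 17.9% ± 1.01, Igfbp4 10.8% ± 0.99, Igfbp3 7.01% ± 0.29 and Igfbp2 2.62% ± 0.21. In YAP-5SA, Igfbp4 with 51.1% ± 4.98 and Igfbp3 with 45.3% ± 4.73 (SD, n = 3) left 3.25% to Igfbp7 and 0.326% to Igfbp6. In TAZ-S89A, Igfbp3 took 58.6% ± 1.01 and Igfbp7 35.9% ± 0.67 (SD, n = 5), with 3.0% for Igfbp6, 1.93% for Igfbp4 and 0.512% for Igfbp5. The leading transcript therefore differed between the groups, although the shares of Igfbp3 and Igfbp4 in YAP-5SA lay within the spread of each other and changed order (50.1% and 47.9%) when counts were not divided by length. Igfbp1, the insulin-regulated binding protein of hepatocytes, had 4 counts in all of YAP-S127A, 2 in YAP-5SA libraries and 0 in TAZ-S89A. The summed nRPKM also differed, at 278 to 318 in YAP-S127A, 499.9 to 609 in YAP-5SA and 68.8 to 109 in TAZ-S89A, without overlap.

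**Figure D2:**
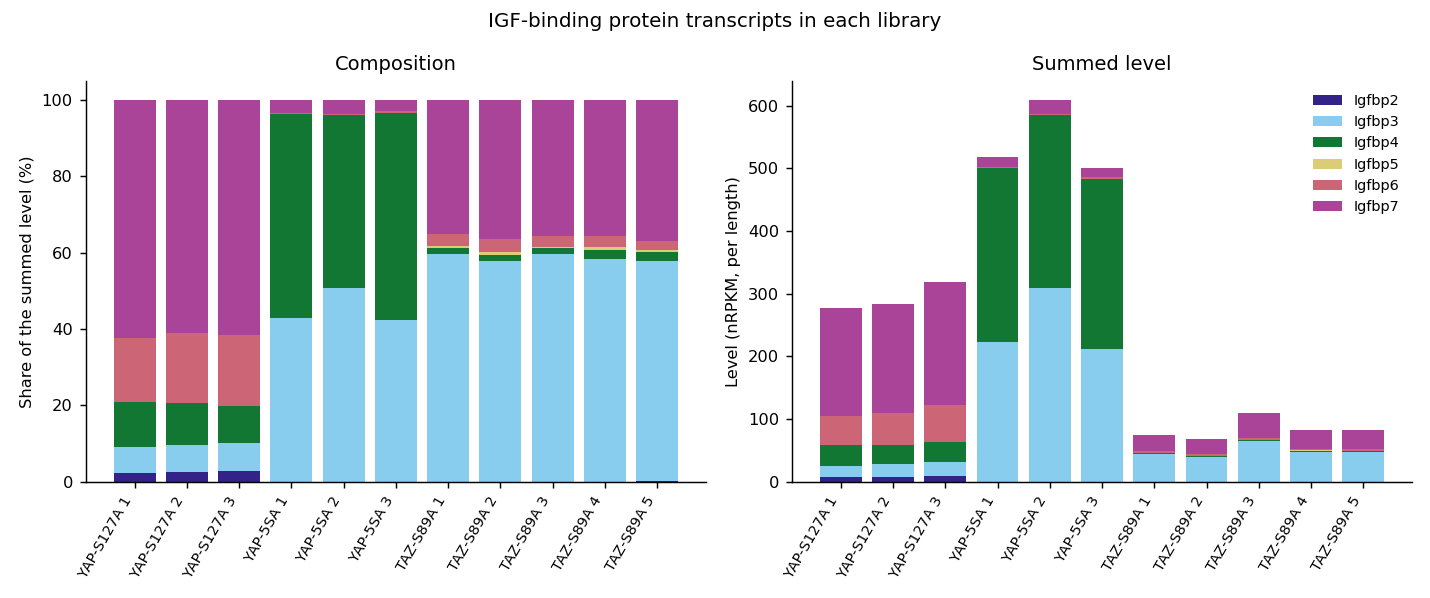
Binding protein mRNA of Igfbp2 to Igfbp7 per library, as summed nRPKM and as the share of each gene in percent of that sum, with the 11 libraries ordered by mutant group. The main colour changes from Igfbp7 in YAP-S127A (61.6% on average) to Igfbp4 and Igfbp3 in YAP-5SA (51.1% and 45.3%) and Igfbp3 in TAZ-S89A (58.6%).

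Pappa (Entrez gene 18491, chromosome 4, 65124174 to 65357509), the protease gene, was found in YAP-S127A and TAZ-S89A at a low level and was almost missing from YAP-5SA, the group with the most Igfbp4. Levels were 1.83, 2.0 and 1.64 CPM in YAP-S127A and 3.18, 2.43, 1.71, 1.71 and 1.5 in TAZ-S89A, which overlapped. The YAP-5SA libraries held 0, 0 and 1 counts. Over pooled counts, 381 in TAZ-S89A and 202 in YAP-S127A against 1, the ratio to YAP-5SA was 269.9 (95% interval 48.2 to 10690) for TAZ-S89A and 219 (38.8 to 8681) for YAP-S127A, the intervals covering counting error only. Both differences from YAP-5SA were called (adjusted p = 7.45e-08 for TAZ-S89A and 2.5e-07 for YAP-S127A in edgeR). The TAZ-S89A and YAP-S127A difference of 0.23 (SE 0.27) was not called in edgeR (adjusted p = 0.481). On chromosome 4 the other 992 tested genes had a median of 0.49 in TAZ-S89A against YAP-5SA. It was -0.53 in YAP-5SA against YAP-S127A and -0.08 in TAZ-S89A against YAP-S127A. Its part in the Pappa differences was not tested.

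The relatives and inhibitors of the protease followed other patterns. Pappa2, whose protein cuts IGFBP3 and IGFBP5, was highest in TAZ-S89A, the group with Igfbp5, at 8.68 ± 2.74 CPM (SD, n = 5), against 0.839 ± 0.0451 in YAP-S127A and 0.265 ± 0.0946 in YAP-5SA (n = 3 each). Within TAZ-S89A, replicates 1 to 3 held 6.72, 6.77 and 6.58 CPM of it and replicates 4 and 5 held 12.1 and 11.3. It was called higher at 3.35 (SE 0.29) than in YAP-S127A and at 5.01 (SE 0.34) than in YAP-5SA. Stc1 and Stc2 encode stanniocalcins, glycoproteins that inhibit PAPP-A. Stc1 was at 6.31 ± 1.04 CPM in YAP-S127A, 0.331 ± 0.115 in YAP-5SA libraries and 0.580 ± 0.523 in TAZ-S89A, lower than in YAP-S127A by changes of -4.24 (SE 0.57) and -3.58 (SE 0.46). Without TAZ-S89A replicates 4 and 5, at 1.39 and 0.835 CPM, the TAZ-S89A change became -4.79. Stc2 was lowest in TAZ-S89A, at 9.86 ± 1.17 CPM against 31.0 ± 2.85 and 27.3 ± 3.59, with changes of -1.66 (SE 0.13) and -1.47 (SE 0.13).

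Counted by comparison, TAZ-S89A against YAP-S127A asks how lines of the TAZ mutant differ from those of the YAP mutant that is also changed at the site in its name only. Of the 10 genes, Igfbp3 and Igfbp5 rose, 5 fell (Igf1r, Igfbp2, Igfbp4, Igfbp6 and Igfbp7), and 3 were not called (Igf1, Irs1 and Pappa). Calls stood at 27.0% higher and 30.6% lower over all tested genes. The 7 calls stand beside 57.6% called over the same genes, a share close to 7 of 10. All 7 had a log2 difference of 1 or more (32.2% of all genes) and 5 of 2 or more (16.8%). In 8 of the 10 the groups did not overlap, against 57.8% of all genes. Their median log2 difference was -0.92 and the median size 2.20, beside -0.03 and 0.63 over all genes. The 10 genes were chosen with earlier results of these data known. Igfbp2, Igfbp5 and Pappa also passed the filter only through the groups in which they were high. Here and in the next comparisons, the counts and sizes are therefore descriptions, and whether the 10 genes differ more than other genes was not tested.

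TAZ-S89A against YAP-5SA gave 5 genes higher (Igf1, Igfbp5, Igfbp6, Igfbp7 and Pappa), 4 lower (Igf1r, Irs1, Igfbp3 and Igfbp4) and Igfbp2 not called. Over all genes 26.9% were higher and 31.0% lower, 57.9% in all. A difference of 1 or more was seen in 5 (33.8% of all genes) and of 2 or more in 5 (17.1%), and 9 of 10 did not overlap (52.0%). The median difference was 0.21 and the median size 1.61, beside -0.04 and 0.66 over all genes.

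The YAP mutants compared with each other, which share the protein and differ in the number of sites changed, gave 3 genes higher in YAP-5SA (Igfbp3, Igfbp4 and Irs1), 6 lower (Igf1, Igf1r, Igfbp2, Igfbp6, Igfbp7 and Pappa) and Igfbp5 not called. Among all genes 28.2% were higher and 27.0% lower, 55.2% in all. A difference of 1 or more was reached by 8 (34.4% of all genes) and of 2 or more by 7 (16.8%), with 9 of 10 not overlapping (69.6%). The median difference was -1.74 and the median size 3.24, beside 0.01 and 0.68 over all genes. In the 2 comparisons with YAP-5SA these medians stayed as given when Pappa was set to the lower limit of its interval. The comparisons share groups, so their counts are not independent of each other.

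**Figure D3:**
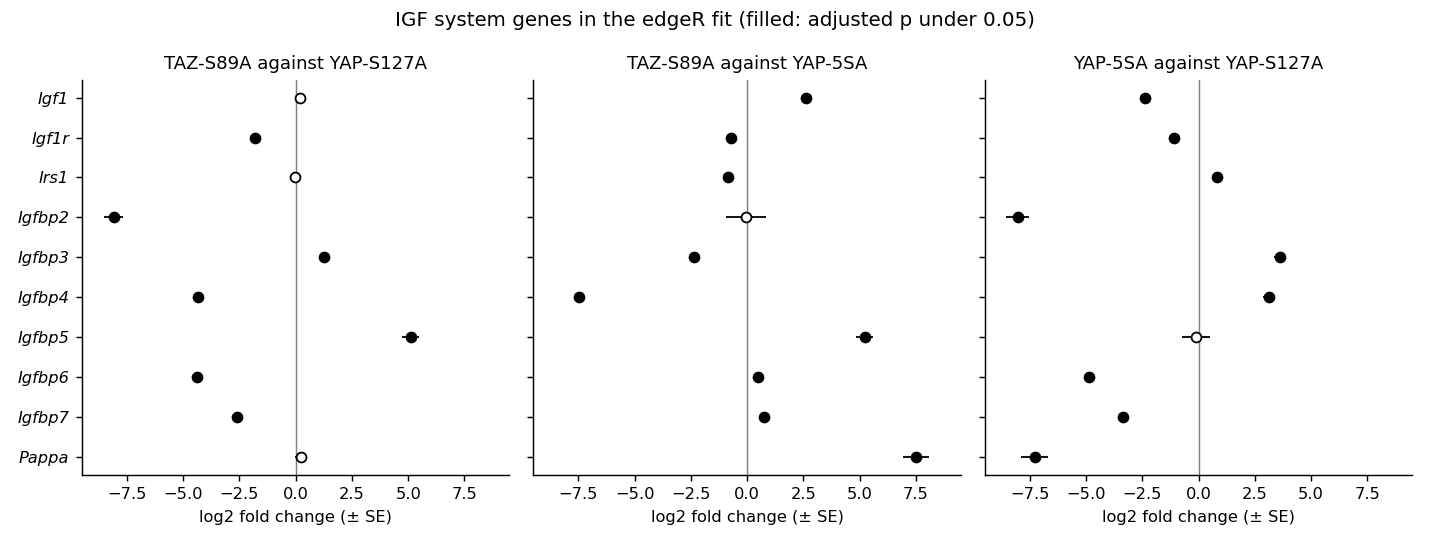
Log2 fold change of each of the 10 genes in the 3 comparisons, with standard errors from edgeR and open points where a gene was not called. Igfbp4 reached -7.45 in TAZ-S89A against YAP-5SA, Igfbp2 stood near -8 against YAP-S127A in both other groups, and the fitted sizes for Pappa against YAP-5SA rest on 1 count.

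Beyond the 10 genes, 47 further genes of the IGF pathway were listed by role and 40 had enough counts to test. In TAZ-S89A against YAP-S127A 13 were higher, 13 lower and 14 not called (median 0.07). In TAZ-S89A against YAP-5SA the counts were 14, 12 and 14 (median -0.03), and in YAP-5SA against YAP-S127A they were 8, 15 and 17 (median -0.15). Calls of 26, 26 and 23 in 40 are close to the background shares above. The counts by role below rest on a few genes each and are to be read beside the same shares, 57.6%, 57.9% and 55.2% of all genes called in these comparisons.

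Among the other ligands and receptors, Igf2r changed most. It encodes the mannose 6-phosphate receptor, which takes up IGF2 for breakdown, and stood at 68.4, 64.9 and 58.2 CPM in the YAP-S127A libraries, 64.5, 53.6 and 68.0 in YAP-5SA, but 2.19, 2.41, 1.62, 2.98 and 2.25 in TAZ-S89A. The YAP groups overlapped, and TAZ-S89A stood at -4.81 (SE 0.17, adjusted p = 2.32e-11) against YAP-S127A and -4.77 (SE 0.17, adjusted p = 2.12e-11) against YAP-5SA. Igf2, the fetal ligand, was low everywhere, at 1.33 ± 0.172 CPM in YAP-S127A, 0.231 ± 0.174 in YAP-5SA libraries and 0.554 ± 0.0837 in TAZ-S89A. Its difference between TAZ-S89A and YAP-5SA (1.27, SE 0.39, adjusted p = 0.0124) was not called without YAP-5SA replicate 2 (0.0568) or 3 (0.0557), and was 2.03 without YAP-5SA replicate 1, the adjusted p lying between 0.000671 and 0.0568 across 21 alternatives. The insulin receptor gene Insr was called in no comparison, at 39.3 ± 2.59, 35.5 ± 8.66 and 47.0 ± 7.04 CPM in YAP-S127A, YAP-5SA and TAZ-S89A (edgeR adjusted p from 0.056 to 0.533). Ins1 had no count, Ins2 only 2, and Insrr was too low to test.

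In the growth hormone axis, which drives Igf1 in liver, 2 of 5 genes fell and none rose in TAZ-S89A against YAP-S127A, where 30.6% of all genes fell and 27.0% rose. Against YAP-5SA 2 rose and 3 fell, and YAP-5SA against YAP-S127A likewise had 2 up and 3 down. The receptor gene Ghr was at 73.8 ± 8.73 CPM in YAP-S127A, 51.1 ± 12.8 in YAP-5SA libraries and 14.8 ± 2.04 in TAZ-S89A, with TAZ-S89A at -2.32 (SE 0.16) and -1.79 (SE 0.16). The fall of Ghr between the YAP groups (-0.53, SE 0.18, adjusted p = 0.0223) was not called without YAP-S127A replicate 3 (0.0936) or YAP-5SA replicate 1 (0.107) or 3 (0.0847), the adjusted p lying between 0.00236 and 0.107 across 21 alternatives. Socs2, a feedback inhibitor that growth hormone induces, was at 16.8 ± 0.951, 2.13 ± 0.158 and 10.6 ± 0.632 CPM in the same order, and so was low in YAP-5SA, where Igf1 was low. Jak2 and Stat5a were higher in YAP-5SA than in YAP-S127A, at 0.63 (SE 0.13) and 0.53 (SE 0.15), and TAZ-S89A against YAP-5SA had Jak2 at -0.83 (SE 0.11) and Stat5b at 0.55 (SE 0.12).

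Adaptors beside Irs1 gave 4 higher, 1 lower and 1 not called of 6 tested in TAZ-S89A against YAP-S127A (57.6% of all genes called). They gave 3 higher and none lower against YAP-5SA (57.9%), and 2 higher and 1 lower between the YAP groups (55.2%). Grb10, an inhibitory adaptor of the insulin and IGF1 receptors, was high in YAP-S127A, at 146 ± 7.36 CPM against 10.2 ± 0.589 in YAP-5SA libraries and 15.2 ± 2.86 in TAZ-S89A, with changes of -3.83 (SE 0.18) and -3.27 (SE 0.14). TAZ-S89A stood 0.57 (SE 0.15) above YAP-5SA. Grb14, its close relative, was lowest in YAP-S127A, at 0.490 ± 0.260, 1.78 ± 0.383 and 3.52 ± 0.221 CPM. Grb2 exceeded its YAP-S127A level by 0.83 (SE 0.15) in TAZ-S89A and 0.91 (SE 0.17) in YAP-5SA on the log2 scale. Gab1 was higher in TAZ-S89A than in YAP-5SA at 0.83 (SE 0.13). Irs2, the second main docking protein, was called higher in TAZ-S89A than in YAP-S127A (0.66, SE 0.18, adjusted p = 0.00737). Its TAZ-S89A libraries ran from 45.4 to 74.2 CPM, highest in replicates 4 and 5, against 34.4 to 42.9 in YAP-S127A. The call was kept across 21 alternatives, with differences of 0.406 to 0.80 and an adjusted p of up to 0.0407.

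Of 4 tested genes of other proteins with an IGFBP domain and the acid-labile subunit gene Igfals, 3 were lower in TAZ-S89A against YAP-S127A (30.6% of all genes), 2 against YAP-5SA (31.0%) and 1 in YAP-5SA against YAP-S127A (27.0%). None of these 4 was called higher, beside 27.0%, 26.9% and 28.2% of all genes. Htra1, a secreted serine protease, averaged 162 ± 13.0 CPM in YAP-S127A, 188 ± 37.7 in YAP-5SA libraries and 80.8 ± 18.9 in TAZ-S89A. Igfbpl1 was near the floor, with 52, 27 and 3 counts in all of YAP-S127A, YAP-5SA and TAZ-S89A, pooled ratios to TAZ-S89A of 26.5 (95% interval 8.58 to 133) and 12.7 (3.91 to 65.5). All 3 TAZ-S89A counts were in replicate 3, and the fitted changes in TAZ-S89A were -7.07 and -6.05 without it, so the ratios, whose intervals cover counting error only, rest on that library. Kazald1 was lower in TAZ-S89A than in YAP-S127A at -0.74 (SE 0.19). The Kazald1 difference of -0.64 (SE 0.22, adjusted p = 0.0224) between the YAP groups was lost without YAP-S127A replicate 1 (0.0612) or 3 (0.0679) or YAP-5SA replicate 1 (0.055) or 2 (0.0834), the adjusted p lying between 0.00236 and 0.0834 across 21 alternatives.

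Of 19 genes of the PI3 kinase, AKT and FOXO branch, 8 were higher and 3 lower in TAZ-S89A against YAP-S127A, 7 and 5 against YAP-5SA, and 4 and 7 in YAP-5SA against YAP-S127A. These 11, 12 and 11 calls are close to the shares over all genes, 57.6%, 57.9% and 55.2%. The main AKT gene of most tissues, Akt1, was called in no comparison, at 284 ± 8.70, 287 ± 24.2 and 273 ± 21.5 CPM (edgeR adjusted p from 0.706 to 0.952), and it was named after its values were seen. The regulatory subunit gene Pik3r3 was higher in TAZ-S89A by 1.48 (SE 0.13) and 1.54 (SE 0.13) than in YAP-S127A and YAP-5SA, and Pik3r2 by 1.18 (SE 0.14) than in YAP-S127A, whereas Pik3r1 was lower at -0.82 (SE 0.17). Foxo3 and Foxo1, transcription factors that AKT holds outside the nucleus, were higher in YAP-5SA than in YAP-S127A by 1.54 (SE 0.17) and 1.22 (SE 0.21). Tsc2 and Gsk3b, inhibitory targets of AKT, were higher in TAZ-S89A than in YAP-5SA by 1.25 (SE 0.16) and 1.13 (SE 0.17), and Tsc2 was lower in YAP-5SA than in YAP-S127A at -0.98 (SE 0.18).

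Ratios within a library compare genes per length without a scaling between libraries. Igf1r exceeded Insr in every library, with an nRPKM ratio of 5.07 to 5.79 in YAP-S127A, 2.54 to 3.08 in YAP-5SA and 1.15 to 1.35 in TAZ-S89A. The ratio therefore fell over the groups without overlap, Igf1r being called in each comparison and Insr in none. Irs1 over Irs2 was 0.919 to 1.02 in YAP-S127A and 1.42 to 1.58 in YAP-5SA. In TAZ-S89A this ratio was 0.659 to 0.774 in replicates 1 to 3 and 0.469 and 0.463 in replicates 4 and 5, where Irs2 stood at 74.2 and 73.8 CPM against 45.4 to 55.3 in the other 3. Igfbp3 over Igf1r, the most abundant binder of TAZ-S89A over its receptor, was 0.989 to 1.40 in YAP-S127A, 22.5 to 44.9 in YAP-5SA and 7.21 to 16.6 in TAZ-S89A. No test was run on these ratios.

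**Figure D4:**
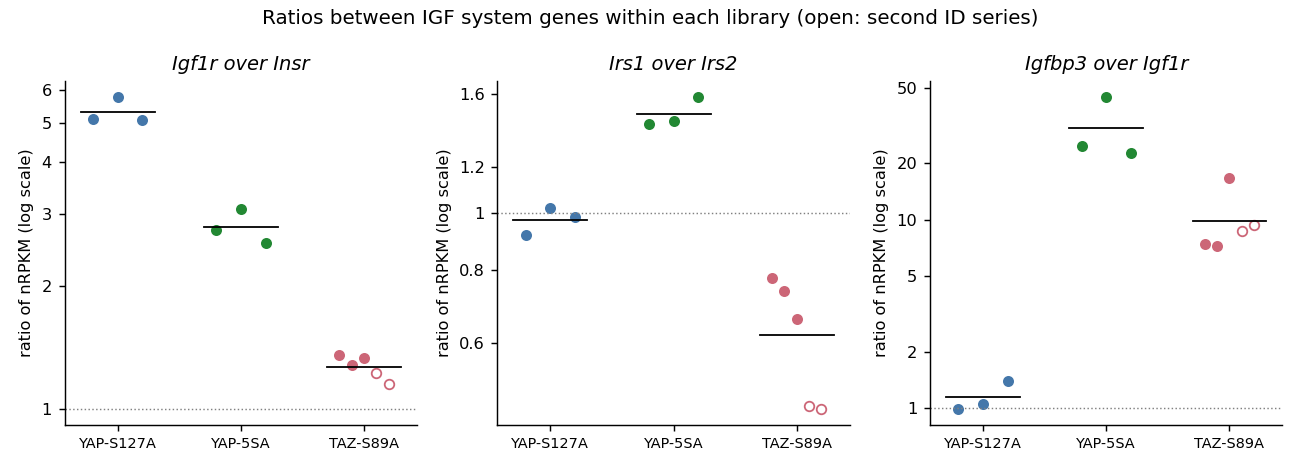
Ratios of nRPKM between IGF system genes within each library on log axes, by mutant group, with open points for TAZ-S89A replicates 4 and 5 and bars for group means. Igf1r over Insr lies between 5.07 and 5.79 in YAP-S127A and between 1.15 and 1.35 in TAZ-S89A, and Igfbp3 over Igf1r is highest in YAP-5SA at 22.5 to 44.9.

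Members also differed in how alike their profiles were over the 11 libraries. The likeness was the root mean square difference of centred log2 CPM, where a smaller value is more alike. It was 0.78 between Igfbp6 and Igfbp7, the closest pair of the 10, and 5.35 between Igfbp4 and Igfbp5, the most distant. Igf1 and Pappa, both lowest in YAP-5SA, stood at 1.19. Among 10566 other genes, the most alike to Igf1r were Slc25a37 (0.079) and Arhgef40 (0.107), and to Irs1 Madd (0.085) and Nr6a1 (0.093). For Igf1 they were B3glct (0.185) and Fzd3 (0.208), for Igfbp3 Tst and Paqr7 (0.202 each), for Igfbp7 Aig1 (0.214) and Nupr1 (0.218), and for Igfbp6 Exd2 (0.285) and Tsga10 (0.344). The genes of wide range had looser matches, Bcam (0.376) and Areg (0.558) for Igfbp4, Gdnf (0.378) and Tfcp2l1 (0.463) for Igfbp5, Efemp2 (0.404) and Il1rl1 (0.445) for Pappa, and the cadherin Cdh11 (0.714) and the collagen Col8a1 (0.766) for Igfbp2. With 3 groups, many genes share a profile, and these values are descriptions.

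The nearest tested gene on either side was read for each member, and those of 5 members are given, chosen after their values were seen. Soat2, 903 bases beyond Igfbp6, averaged 43.9 CPM in YAP-S127A, 7.01 in YAP-5SA libraries and 3.76 in TAZ-S89A, and like Igfbp6 was called lower than in YAP-S127A in both other groups. Spryd3, on the other side of Igfbp6, averaged 40.3, 55.5 and 42.9 CPM. The neighbours of Igfbp4, the topoisomerase gene Top2a and Tns4, averaged 204, 278 and 375 CPM and 0.0976, 1.34 and 0.295 CPM, and neither was called lower in TAZ-S89A than in YAP-S127A, as Igfbp4 was. In the other comparisons Tns4 had the calls of Igfbp4, at -2.38 (adjusted p = 0.00382) in TAZ-S89A against YAP-5SA and 3.73 (adjusted p = 0.00132) in YAP-5SA against YAP-S127A. Pgpep1l, 1853 bases beyond Igf1r, stepped down with it, at 2.14, 0.162 and 0 CPM. The predicted gene Gm30788, before Igfbp2, had that gene's pattern at a low level, at 1.36, 0.0412 and 0.0407 CPM. Adcy1, beside Igfbp3, averaged 22.4, 56.6 and 115 CPM, highest in TAZ-S89A, where Igfbp3 was intermediate.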

How the data were processed

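PolyA RNA of 11 libraries was used, each in the group of its mutation label, with replicates numbered in deposition order. The deposited tables give counts of reads per Entrez gene model, per the file headers. They also give nRPKM, an RPKM that the authors rescaled with a factor of each library, per the file headers. GSNAP and the GRCm38 build are named in the submitters' processing notes. Annotation release, counting tool and strand: not given in the sources used here. RefSeq symbols matched 31049 of 36528 IDs, and the 5479 unmatched IDs held 2.91% of counts.

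Counts were tested with edgeR 4.0.16 in R 4.3.3 (filterByExpr by group, TMM, robust quasi-likelihood fit to all 11 libraries with group as the only term). The filter kept 18224 genes and removed 18304. The relative spread between libraries was 0.0893 for YAP-S127A, 0.174 for YAP-5SA and 0.247 for TAZ-S89A, and the fit shares 1 estimate. The standard error (SE) of a log2 fold change is its size over the root of the F statistic. nRPKM were used only for shares and ratios within a library. The 5 lists of cell type markers and 6 lists of pathway genes were written from general knowledge. The 10 members and these lists were chosen with earlier results of these data known. From each pathway list the text names up to 4 called genes of the largest change per comparison, and Insr, Igfbp1, Akt1 and other uncalled genes outside that rule were named after their values were seen. 1 gene picked by the rule is not reported here. The 2 most alike genes per member came from genes with an average log2 CPM of at least 2. Alternatives were factors by RLE or by the upper quartile, limma-voom (limma 3.58.1), DESeq2 1.42.0, no filter and a filter of at least 1 CPM in at least 3 libraries, a fit to only the groups compared, a term for the sample ID series, leaving out its second part, and leaving out each library in turn. Summing the alike TAZ-S89A libraries (1 with 2, 4 with 5) was chosen after the data were seen. On simulated counts for TAZ-S89A against YAP-S127A (17599 genes), 94.9% of 99 changes of 2 and 60.4% of 96 changes of 1 on the log2 scale were recovered. There were 13 false calls. Far fewer genes were changed there than were called in the real data, so the adjustment differs. The simulated libraries were also drawn independently, with 1 spread per gene for all groups. The real data have alike TAZ-S89A libraries and unequal group spreads. For these reasons the shares and the number of false calls may not carry over.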

Additional observations from a re-analysis of the deposited data

Results flagged for a closer look

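Within TAZ-S89A, the only group with enough libraries for a check of single values, 3 of the 10 genes had a library set apart from the other 4, its gap to the nearest library being more than 0.71 of the range of the group. Chance sets about 1 in 20 such groups apart when the libraries are independent. Here replicates 1 and 2 were alike, as were 4 and 5, so replicate 3 stood alone and that rate may not hold. It cannot be used to weigh the 3 genes. Replicate 3 held 199 CPM of Igfbp3, with a gap of 0.801 of the range, and 59.1 CPM of Igfbp7, with a gap of 0.778. Without it, the Igfbp3 difference was 1.16 from YAP-S127A and -2.46 from YAP-5SA, and that of Igfbp7 was -2.67 and 0.65, all still called by edgeR. Replicate 5 held 0.209 CPM of Igfbp2, 5 counts, with a gap of 0.786 of the range.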

How the results depend on the processing

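The number of the 10 genes called kept within 7 to 7 in TAZ-S89A against YAP-S127A, 8 to 9 in TAZ-S89A against YAP-5SA and 9 to 9 in YAP-5SA against YAP-S127A over 21 alternatives each, leaving out each library in turn among them. Called pathway genes ran from 25 to 30, 22 to 27 and 20 to 26, and all called genes from 9020 to 11250, 9185 to 11506 and 8762 to 11782. Of 628 alternative values of the members' log2 fold changes, 616 kept direction and side of the threshold, 2 lost the call (both Igfbp6, given above) and 10 changed sign, all of differences near 0 that were not called. Irs1 in TAZ-S89A against YAP-S127A turned to 0.004 with the ID series as covariate, 0.001 without YAP-S127A replicate 1, and 0.069 and 0.009 without TAZ-S89A replicate 3 or 5 (-0.106 to 0.069 over all left-out libraries). Igfbp2 in TAZ-S89A against YAP-5SA turned to 0.003 with upper-quartile factors, 0.296 without YAP-5SA replicate 2, and 0.331 and 0.275 without TAZ-S89A replicate 1 or 3 (-1.149 to 0.331). Igfbp5 in YAP-5SA against YAP-S127A turned to 0.287 without YAP-S127A replicate 1 and 0.253 without YAP-5SA replicate 1 (-0.629 to 0.287). These rest on few counts for Igfbp2 and Igfbp5, and for Irs1 the cause was not tested. Of 1047 values of the named pathway genes, 9 lost a call, those of Igf2, Ghr and Kazald1 above. The counts of Igfbp2, Igfbp5 and Pappa in their low groups are at the limit of the depth, so the sizes of their changes are loose. No paired analysis was possible because the replicate numbers only follow the order of deposition.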
